A study of Mus musculus with 8 samples.

Results

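Kinesins are motor proteins that use ATP to walk along microtubules or to take microtubule ends apart. Transport kinesins carry mitochondria, endosomes, vesicles and ciliary cargo through the cell at all times. Mitotic kinesins are made mostly by dividing cells, where they build the spindle, move and align chromosomes and organise the midzone at which the daughter cells separate; hematopoietic stem cells (HSCs) of adult bone marrow are mostly quiescent and need few of them. The kinesins measured here were all rows of the count table whose symbol was Kif followed by a number, with or without the letter a, b or c, or Kifc followed by a digit, which gave 39 genes of 22065 named genes. A class of 12 was called mitotic (Kif2c, Kif4, Kif11, Kif14, Kif15, Kif18a, Kif18b, Kif20a, Kif20b, Kif22, Kif23 and Kifc1), and the other 27 were taken as transport or other kinesins. Cenpe, a kinetochore kinesin, and Kifc5b have symbols outside this pattern and are given only as partners.

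To ask what the loss of MITOL, a ubiquitin ligase of the mitochondrial outer membrane encoded by Marchf5, does to HSC gene expression, bulk RNA-seq was made from sorted bone marrow HSCs (CD150+ CD48- EPCR+ Lineage-) of C57BL/6 mice aged 8 to 10 weeks, with 100 cells in each of 8 libraries. The 4 Mitol KO libraries came from Mitol Flox/Flox; MX1-cre+ mice and the 4 Control libraries from Mitol Flox/Flox littermates without the Cre. Both groups carried the floxed alleles and both had received Poly:IC, a double-stranded RNA mimic that switches on the interferon-driven MX1-cre, 1 week before sorting, so that an interferon stimulus was common to both, the Cre protein was not, and recombination was not limited to HSCs. The labels number the samples within each group but do not say that each came from its own mouse, so the p-values measure only the spread between these samples. Bulk libraries cannot tell a larger share of dividing cells from more RNA per cell.

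The libraries held 7214935 to 12398138 counts, and the Mitol KO libraries were on the whole the deeper ones (9212488 to 12398138 against 7214935 to 9906457). Marchf5 itself did not differ (normalized counts 232 to 308 in Mitol KO and 262 to 333 in Control, adjusted p = 0.498), and since the sources used here do not say which exons were removed, its total count is no check of the labels. The HSC genes Kit, Procr, Slamf1, Hlf, Mecom, Fgd5 and Hoxb5 were detected in every library, and of these Kit and Hlf were lower in Mitol KO. Cd48, which the sort selects against, was low but higher in Mitol KO (22.2 to 63.4 against 4.49 to 21.7), and the 9 erythroid genes summed to 1032 to 3707 in Mitol KO and 262 to 762 in Control, with 2 of the 5 tested called higher (Gata1, log2 fold change 3.30, edgeR adjusted p = 0.00381, and Hbb-bt, 1.29, edgeR adjusted p = 0.0442). No tested gene of the neutrophil (1 tested), B (1), T (2), mast (1) or macrophage (4) lists was called. With so few tested, this does not set the lists apart from all genes. Lowest in adjusted p was Vcam1 of the macrophage list (log2 fold change 1.60, edgeR adjusted p = 0.0558). Of the neutrophil and T lists, Elane, Mpo and Cd3d did not exceed 12.8 normalized counts in any library. However, Prtn3 had 462 to 1006 in Mitol KO and 332 to 566 in Control. S100a8 (0 to 1.57 in Mitol KO, 0 to 51.2 in Control) and S100a9 (0 in Mitol KO, 2.64 to 21.3 in Control) went the other way. Both had too few counts to be tested. Lck had 153 to 229 in Mitol KO and 136 to 152 in Control, and Cd4 had 15.9 to 36.0 in Mitol KO and 33.2 to 54.3 in Control. Among 16444 genes tested with edgeR, 4.68% were called higher and 3.75% lower in Mitol KO (8.43% in all), that is, with an adjusted p under 0.05. This was 770 genes higher and 616 lower, or 602 and 829 when libraries were scaled by their totals alone.

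What the kinesin promoters shared was looked at first, because genes of mitosis are known to be switched on together late in the cell cycle through a promoter element called the cell cycle homology region, often with CCAAT boxes upstream of it. The core of that element was searched as TTTGAA or TTCGAA and the CCAAT box as CCAAT, on both strands, within 250 bases before and 50 bases after the transcription start site of each gene (GRCm39). Windows of 120 bases, from 90 bases upstream to 30 bases into the transcript, are printed in transcript direction for 5 mitotic kinesins with a core match near the start site, for Kif2c, which rose the most and has neither motif, and for Kif24 and Kif21b, the transport or other kinesins with the largest called rise and fall. Capitals mark the motif matches, in either orientation, that lie wholly within the window.
Kif11 (chr19:37364709-37364828, plus strand): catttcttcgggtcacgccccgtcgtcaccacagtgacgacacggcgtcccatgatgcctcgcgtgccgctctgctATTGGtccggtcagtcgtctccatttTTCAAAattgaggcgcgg
Kif15 (chr9:122780021-122780140, plus strand): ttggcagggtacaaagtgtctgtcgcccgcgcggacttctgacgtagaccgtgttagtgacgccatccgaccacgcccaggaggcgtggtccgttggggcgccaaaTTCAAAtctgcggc
Kif18b (chr11:102815927-102816046, minus strand): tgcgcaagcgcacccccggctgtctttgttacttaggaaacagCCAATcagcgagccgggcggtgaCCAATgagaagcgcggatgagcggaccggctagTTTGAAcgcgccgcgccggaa
Kif20b (chr19:34899662-34899781, plus strand): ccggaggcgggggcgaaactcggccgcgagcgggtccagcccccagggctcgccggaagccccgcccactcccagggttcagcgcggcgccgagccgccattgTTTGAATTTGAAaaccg
Kif23 (chr9:61854044-61854163, minus strand): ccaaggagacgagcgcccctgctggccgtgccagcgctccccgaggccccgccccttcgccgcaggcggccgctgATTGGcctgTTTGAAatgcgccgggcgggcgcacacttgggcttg
Kif2c (chr4:117039807-117039926, minus strand): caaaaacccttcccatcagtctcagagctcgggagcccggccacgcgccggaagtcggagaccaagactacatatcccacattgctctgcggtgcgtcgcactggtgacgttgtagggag
Kif24 (chr4:41464872-41464991, minus strand): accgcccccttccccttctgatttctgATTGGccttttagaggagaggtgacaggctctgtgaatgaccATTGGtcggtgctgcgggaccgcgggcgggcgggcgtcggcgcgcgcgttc
Kif21b (chr1:136059008-136059127, plus strand): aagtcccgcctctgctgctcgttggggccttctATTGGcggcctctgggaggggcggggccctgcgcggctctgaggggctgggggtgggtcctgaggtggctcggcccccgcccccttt

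A core match between 75 bases upstream and 50 bases downstream of the start site was present in 6 of the 12 mitotic kinesins (Kif11, Kif15, Kif18b, Kif20b, Kif22 and Kif23) and in 2 of the 27 others (Kif24 and Kif26b), against 5.76% of 21738 protein-coding promoters. In Kif11, Kif15, Kif18b and Kif20b the first of these matches began 10 to 17 bases after the start site, in Kif23 it began 6 bases before it, and Kif20b held 2 matches side by side. Kif22 and Kif24 had theirs at 35 and 28 bases after the start, the latter running past the end of its printed window. Over the whole 300 bases the core was found in 7 of 12 mitotic and 2 of 27 other promoters (18.8% of all), and the CCAAT box in 6 of 12 and 9 of 27 (39.9% of all). In these windows Kif23 holds a match near the start and did not pass the test for expression, while Kif2c, Kif4, Kif14, Kif20a and Kifc1 hold none there and passed it. Among genes tested in these libraries, 9.58% of those called higher, 5.24% of those called lower and 4.51% of all held a match near the start. With RefSeq promoters (GRCm38.p6), in which 11 mitotic and 18 other kinesins were found and a gene may have several start sites, 8 of 11 and 4 of 18 had a match near a start site, against 7.78% of 27025 genes; Kif4 and Kifc1 were among the 8. These are letter matches in short windows, not sites shown to be bound.

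**Figure D1:**
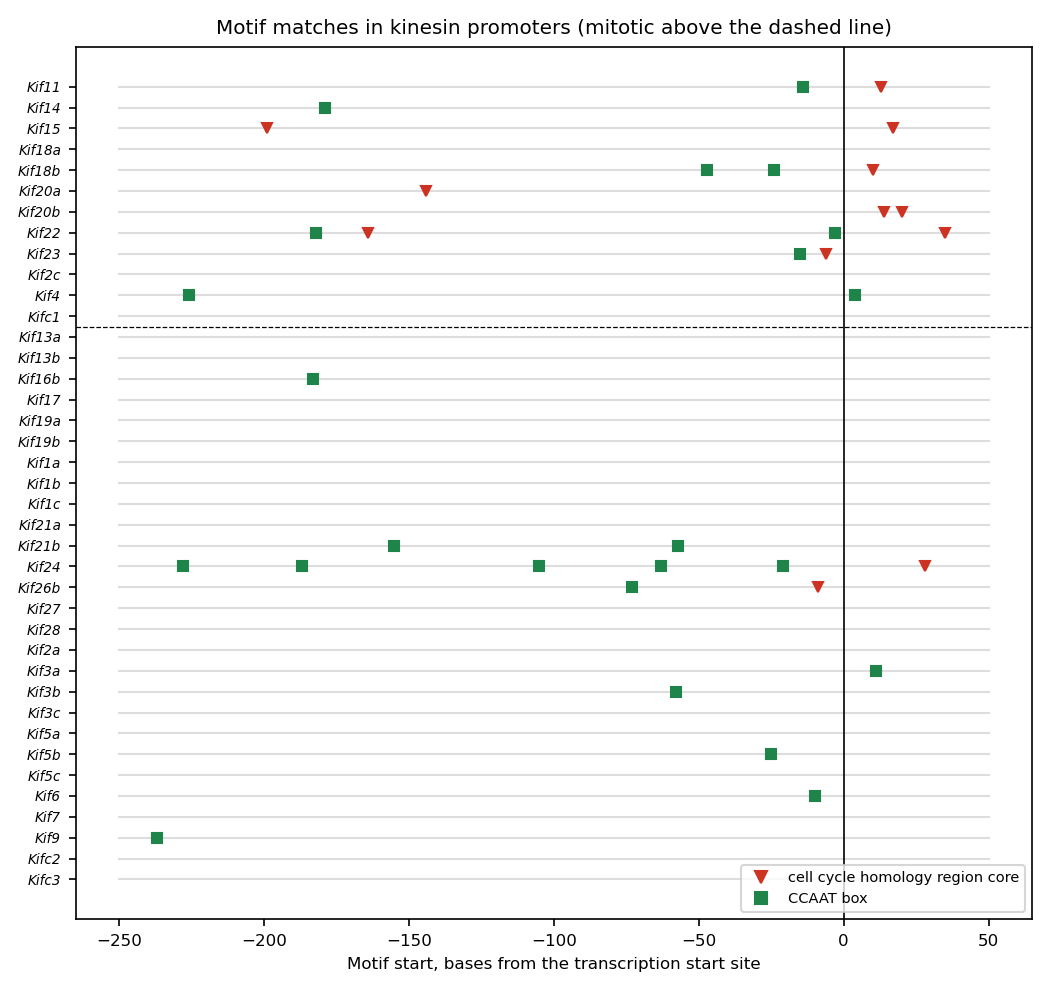
Positions of motif matches in the promoters of the 39 kinesins, each grey line running from 250 bases before to 50 bases after the transcription start site (x axis, bases; the black line is the start site). Red triangles are cores of the cell cycle homology region and green squares are CCAAT boxes; core matches near the start site lie in 6 of the 12 mitotic promoters above the dashed line and in 2 of the 27 below it.

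The mitotic kinesins were higher in Mitol KO HSCs. Of the 12, all of which had enough counts to be tested, 10 were called higher and none lower, where 4.68% of all genes were called higher, and all 12 had a positive log2 fold change. Their median log2 fold change was 1.40, against -0.02 over all genes tested, and the 10 called genes rose 2.05-fold to 3.14-fold. In 8 of the 12 every Mitol KO library lay above every Control library, which held for 8.17% of all genes. The number of calls rested on few libraries: it was 5 without Mitol KO 1, 4 without Mitol KO 2, 5 without Mitol KO 3 and 5 without Control 2. Kif20a, Kif22 and Kifc1 stayed called whichever library was left out. The call of Kif18b was lost without Mitol KO 1 or 2 (edgeR adjusted p = 0.0513 and 0.0506), that of Kif2c without Mitol KO 2 or Control 4 (0.0531 and 0.0607) and that of Kif20b without Mitol KO 3 or Control 2 (0.0504 and 0.0533). Kif11 lost its call without Mitol KO 1, 2 or 3 and without Control 2 or 4 (0.0511 to 0.0721), and Kif15 in these same fits and without Control 1 (0.0549 to 0.0942). Kif4 (0.0595 to 0.0953) and Kif14 (0.0686 to 0.0908) lost theirs without Mitol KO 1, 2 or 3 and without Control 1 or 2. In what follows, values are normalized counts (counts divided by the library's size factor), given for libraries 1 to 4 of each group, SE is the standard error of the log2 fold change, and adjusted p is from edgeR (quasi-likelihood F test), corrected over all genes tested by the Benjamini-Hochberg method.

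Transcripts of the motors that set up the bipolar spindle rose together. Kif11 (kinesin-5 family) crosslinks antiparallel microtubules and pushes the spindle poles apart, and had 1342, 1089, 911 and 551 normalized counts in Mitol KO and 179, 201, 569.9 and 389 in Control. The 2 groups overlapped by a single pair, Mitol KO 4 lying just below Control 3, and the log2 fold change was 1.51 (SE 0.34, adjusted p = 0.0236). Kif15 (kinesin-12 family), which helps Kif11 keep the poles apart, had 1170.1, 1021, 742 and 462 in Mitol KO and 193, 267, 511 and 437 in Control. It overlapped in the same pair of libraries, with a log2 fold change of 1.24 (SE 0.31, adjusted p = 0.0317). Kifc1 (kinesin-14 family), a minus-end motor that draws the poles together, had 218, 241, 172 and 125 in Mitol KO and 38.2, 58.5, 80.1 and 79.9 in Control, with no overlap. Its log2 fold change was 1.52 (SE 0.27, adjusted p = 0.00961). Kifc5b is a close copy of Kifc1, so that reads may have been shared or lost between them; it was 118 ± 32.3 (SD, n = 4) in Mitol KO and 56.0 ± 18.3 in Control (log2 fold change 1.05, edgeR adjusted p = 0.0421), and it was called in 1 of the 8 fits that left out a library.

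Transcripts of motors that move and hold chromosomes were higher as well. Kif2c (kinesin-13 family), which takes apart microtubule ends at centromeres and so frees wrong attachments, had the largest log2 fold change of all kinesins tested (1.65, SE 0.36, adjusted p = 0.0201). It had 255, 282, 219 and 212 normalized counts in Mitol KO and 58.0, 30.9, 151 and 61.1 in Control; Control 3 was high among its group but below all Mitol KO libraries. Kif22 (kinesin-10 family) binds DNA and pushes chromosome arms away from the poles, and had 600.3, 576, 573 and 443 in Mitol KO and 206, 216, 352 and 278 in Control. Its groups did not overlap, and its log2 fold change of 1.04 (SE 0.17, adjusted p = 0.00823) was the smallest of the called mitotic kinesins and had the smallest error of that class. Kif4 (kinesin-4 family), a motor of chromosome arms that later joins the midzone, had 333, 322, 202 and 158 in Mitol KO and 51.4, 48.9, 133 and 145 in Control. The groups were close but did not overlap (log2 fold change 1.39, SE 0.36, adjusted p = 0.0360).

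The pair of kinesin-8 motors, which limit microtubule length at plus ends, differed in their call. Kif18b, which acts on astral microtubules, had 1025, 928, 817 and 536 normalized counts in Mitol KO and 183, 123, 419 and 392 in Control. No library overlapped, and its log2 fold change was 1.53 (SE 0.33, adjusted p = 0.0198). Kif18a, which damps chromosome movements at metaphase, had 189, 222, 143 and 114 in Mitol KO and 69.9, 62.8, 132 and 153 in Control. The groups overlapped, and the log2 fold change of 0.65 (SE 0.30) did not pass the test (adjusted p = 0.192). Whether the 2 genes differed from each other was not tested.

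Motors of the midzone and of cytokinesis gave 3 called genes of the kinesin-6 and kinesin-3 families and 1 that was not called. Kif20a, which brings Aurora B to the central spindle, had 451, 496, 351 and 233 normalized counts in Mitol KO and 92.3, 129, 174 and 158 in Control. The groups did not overlap (log2 fold change 1.44, SE 0.24, adjusted p = 0.00844). Kif20b, needed for the final separation of daughter cells, had 412, 408, 459.5 and 234 in Mitol KO and 157, 116, 210.1 and 207 in Control. It too did not overlap, with a log2 fold change of 1.11 (SE 0.23, adjusted p = 0.0177). Kif14, a kinesin-3 motor that binds Prc1 and the citron kinase at the midbody, had 515, 476, 384 and 239 in Mitol KO and 92.3, 61.7, 210.1 and 229 in Control. Here Mitol KO 4 and Control 4 nearly met (log2 fold change 1.41, SE 0.36, adjusted p = 0.0350). Kif23, the motor subunit of centralspindlin, was the least changed of the class. It had 637, 568, 540.1 and 393 in Mitol KO and 208, 262, 504 and 407 in Control, and its log2 fold change of 0.61 (SE 0.24) did not pass the test (adjusted p = 0.134).

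**Figure D2:**
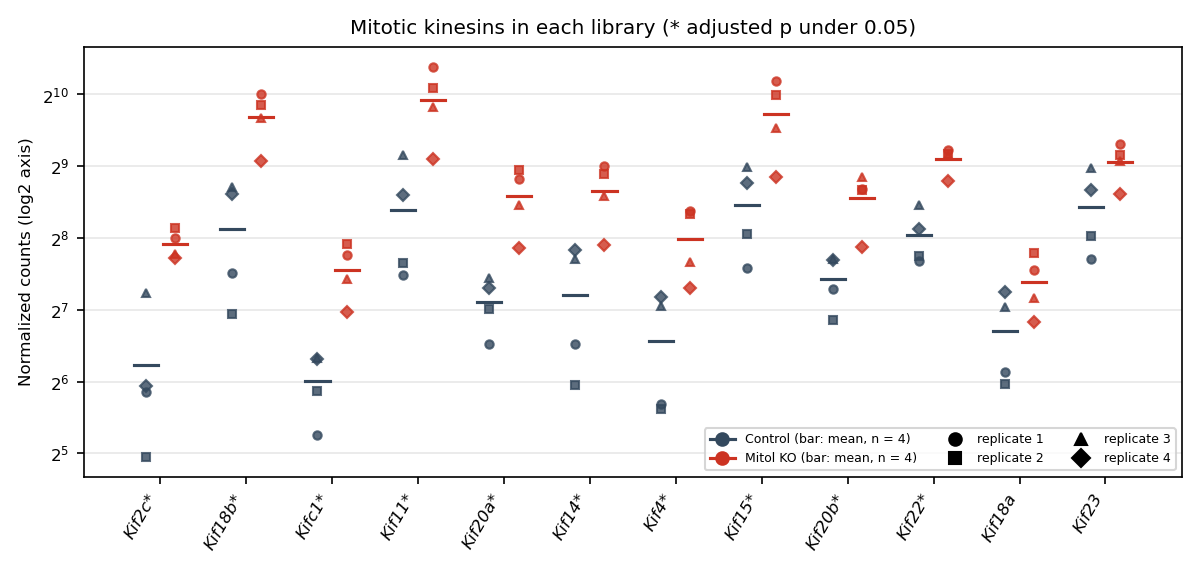
Normalized counts (y axis, log2 scale) of the 12 mitotic kinesins in each Control (dark) and Mitol KO (red) library, ordered by fold change; bars are group means, symbols the replicate number and asterisks mark an adjusted p under 0.05. Mitol KO 4 is the lowest of its group in all 12, and Control 3 and 4 lie above Control 1 and 2 in all 12.

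The libraries of each group were ordered alike across the whole class. Mitol KO 4 was the lowest of its group for all 12 genes, and Control 3 and Control 4 were both above Control 1 and Control 2 for all 12. Mitol KO 1, 2 and 3 were all above every Control library for 11 of the 12. Library totals moved with this order in part: Control 3 and 4 had the larger totals of their group (9906457 and 9794120 counts against 7214935 and 8634833), and Mitol KO 1 and Mitol KO 4 the largest and the smallest of theirs (12398138 and 9212488). Mitol KO 2, with 9358999 counts, was above Control 3 and 4, which had more counts, in all 12 genes, while Mitol KO 2 and Mitol KO 4, with 9212488 counts, were both above Control 3 and 4 in 8 of the 12. With log2 of the library total as a term in the fit, an alternative chosen after seeing the data, the median log2 fold change of the class was 0.99 and all 12 stayed positive, but only Kif20a, Kif22 and Kifc1 were called. In the 5 libraries of like depth (Mitol KO 2, 3 and 4, Control 3 and 4, with 9212488 to 10443657 counts), chosen in the same way, all 12 were positive with a median of 0.77 and none was called, where 2 genes were called higher and 1 lower over all genes. The erythroid sum did not follow the order of the mitotic genes within Mitol KO: it was 1032 and 1088 in libraries 1 and 2 and 3707 and 2551 in libraries 3 and 4. Its part in the result and that of depth were not tested further.

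Levels were compared between genes only as normalized counts per kilobase of the canonical transcript. Summed in this way, the 12 mitotic kinesins held 1821, 1708, 1444 and 1002 in Mitol KO and 413, 429, 908 and 756 in Control, so that every Mitol KO library was above every Control library. The 27 transport or other kinesins summed to 1432, 1442, 1386 and 1442 in Mitol KO and 1453, 1473, 1507 and 1509 in Control, a narrow range in each group. Here every Mitol KO library was below every Control library. The mitotic share of this summed kinesin level was 50.6% ± 6.69 (SD, n = 4) in Mitol KO and 28.9% ± 7.78 in Control, with a range of 41.0% to 56.0% against 22.1% to 37.6%. The slightly lower sum of transport or other kinesins rested on a single gene: in normalized counts the class summed to 9117 ± 247 in Mitol KO and 9736 ± 256 in Control, but without Kif21b to 8009 ± 182 and 7621 ± 254. With the called Kif5b and Kif24 left out as well, the class summed to 6785 ± 157 in Mitol KO and 6813 ± 260 in Control.

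**Figure D3:**
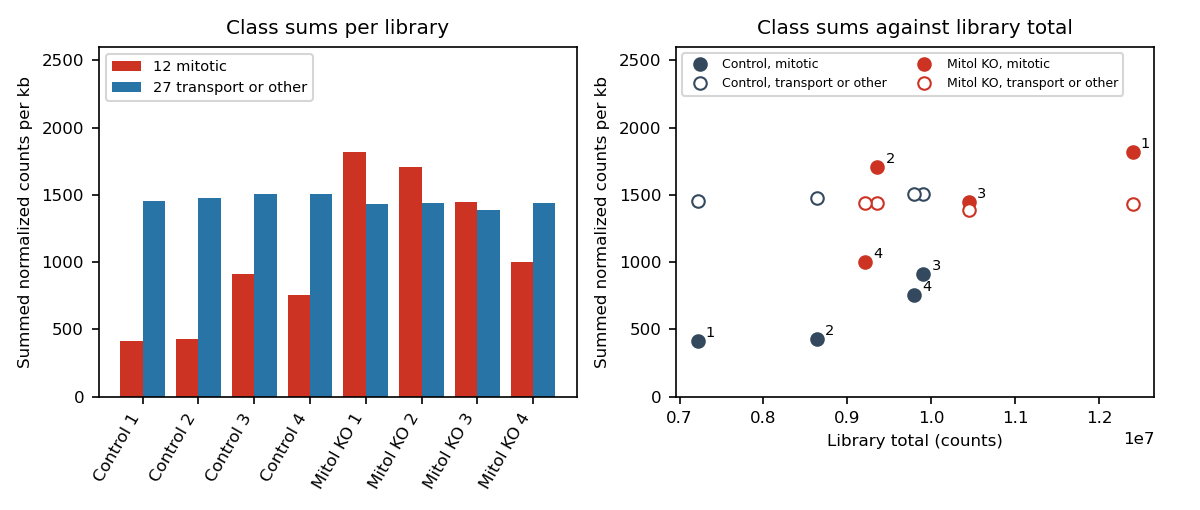
Left, summed normalized counts per kilobase (y axis) of the 12 mitotic (red) and 27 transport or other (blue) kinesins in each library; right, the same sums against the library total in counts, with Mitol KO in red, Control dark and the mitotic points numbered by replicate. The mitotic sum runs from 413 to 908 in Control and from 1002 to 1821 in Mitol KO. The transport sum runs from 1453 to 1509 in Control and from 1386 to 1442 in Mitol KO.

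The order of the single genes changed accordingly. In Control, the highest per-kilobase levels were those of Kif21b (231 ± 32.9), Kif13b (208 ± 21.6), Kif2a (180.3 ± 24.8), Kif13a (175 ± 6.58) and Kif16b (156 ± 18.1), all transport or other kinesins, followed by the mitotic Kif22 (124 ± 32.0). In Mitol KO the order began with Kif22 (259 ± 33.5) and Kif18b (248 ± 63.4), and then Kif2a (215 ± 17.3), Kif11 (199.8 ± 68.2) and Kif13b (193 ± 7.91), with Kif21b in place 10. Each of these genes differed from the next in its list by less than the larger of their standard deviations, except Kif13b from Kif2a and Kif13a from Kif16b in Control. Within families, Kif14 was the 1 called of 6 tested in kinesin-3, and Kifc1 the 1 of 3 in kinesin-14. In kinesin-4, Kif4 rose, Kif21b fell, and Kif7 and Kif21a were not called. In kinesin-13, Kif2c and Kif24 rose and Kif2a was not called.

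The transport or other kinesins as a class showed no common change. Of the 27, 22 had enough counts to be tested, 2 of these were called higher and 1 lower (background 4.68% and 3.75%), and the median log2 fold change was -0.08, with 9 of the 22 positive. A test of the difference between the classes was not made, since the members were assigned with results of these data known. Without Mitol KO 1, 2 or 3 there was 1 call higher, without Mitol KO 4 there were 3 in each direction, and without Control 2 there was none higher and 1 lower.

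**Figure D4:**
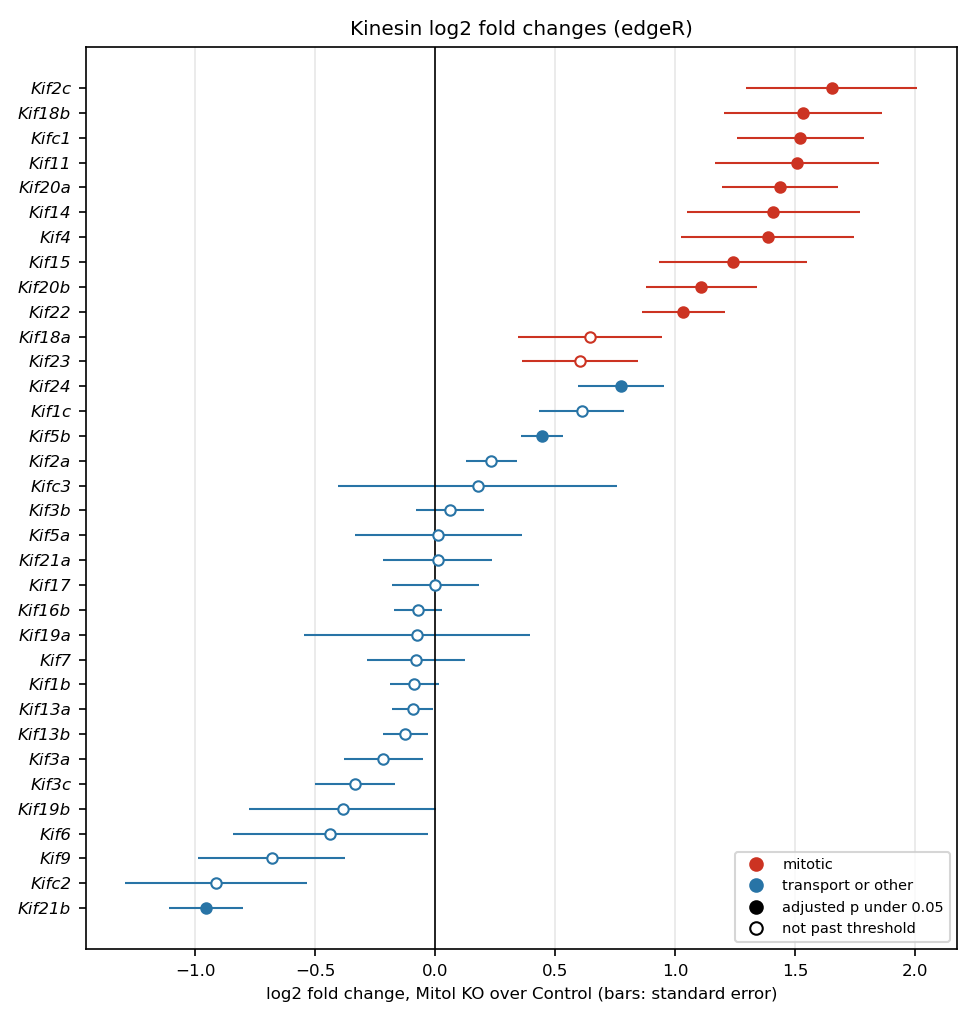
Log2 fold change of Mitol KO over Control (x axis, bars are standard errors from edgeR, 4 libraries a group) for the 34 kinesins tested. Filled points have an adjusted p under 0.05; the 12 mitotic genes (red) run from 0.61 to 1.65 and the 22 transport or other genes (blue) from -0.95 to 0.78.

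Kif21b showed the clearest fall. Kif21b is a kinesin-4 motor that regulates microtubule growth in neurons and T cells, and it had 1023, 1029.8, 881 and 1498 normalized counts in Mitol KO and 1962, 2006, 1926 and 2566 in Control. The groups did not overlap (7.18% of all genes lay wholly lower in Mitol KO) although Mitol KO 4 and Control 4 each stood above their own group. The log2 fold change was -0.95 (SE 0.15, adjusted p = 0.00731). This call was kept with each library left out in turn and with the library total as a term, but not in the 5 libraries of like depth (adjusted p = 0.101). Kif5b, the widely expressed heavy chain of conventional kinesin (kinesin-1) that carries mitochondria among other cargo, had 732, 683, 667 and 691 in Mitol KO and 506, 494, 520.0 and 489 in Control. The groups were tight and separate, and the log2 fold change was 0.45 (SE 0.09, adjusted p = 0.0156). The call was lost without Control 2 (adjusted p = 0.0522) and with the library total as a term (adjusted p = 0.0637), with log2 fold changes of 0.44 and 0.42. Kif24, a kinesin-13 relative of Kif2c that acts on microtubules at the centriole and holds back cilia, had 702, 523, 538 and 359.7 in Mitol KO and 286, 281, 294 and 363 in Control. Mitol KO 4 fell just below Control 4, and the log2 fold change was 0.78 (SE 0.18, adjusted p = 0.0247). The Kif24 call was lost without Mitol KO 1, 2 or 3 and without Control 2 or 3, with adjusted p of 0.0554 to 0.0765. It was also lost with the library total as a term (adjusted p = 0.129). In the 5 libraries of like depth neither Kif5b nor Kif24 was called (adjusted p = 0.176 and 0.256), with log2 fold changes of 0.41 and 0.51.

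Of the 4 transport or other members with the highest mean level per kilobase over both groups, only Kif21b passed the test. Kif13b and Kif13a, kinesin-3 motors of membrane and endosome traffic, had log2 fold changes of -0.12 (SE 0.09, edgeR adjusted p = 0.429) and -0.09 (SE 0.09, edgeR adjusted p = 0.525). Kif13b had 1018, 1086, 1116 and 1108 normalized counts in Mitol KO and 1075, 1311, 1215 and 1055 in Control. Kif13a had 1124, 1292, 1052 and 1199.8 in Mitol KO and 1277, 1189, 1260.4 and 1189.9 in Control. In both genes the groups lay across each other. Kif2a, a microtubule depolymerase of neurons that also works at spindle poles, had 1469, 1592, 1327 and 1378 in Mitol KO and 1077, 1317, 1387 and 1058 in Control. Control 3 lay within the Mitol KO range and the other Control libraries below it, and the log2 fold change of 0.23 (SE 0.11) did not pass the test (adjusted p = 0.185), and 47.7% of its transcript overlaps exons of Dimt1 on the opposite strand.

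Just outside the threshold stood Kif1c, a fast kinesin-3 motor of vesicles, with 344, 339, 295 and 249 normalized counts in Mitol KO and 177, 153, 261 and 199 in Control. Its log2 fold change was 0.61 (SE 0.18, adjusted p = 0.0514). Kif1c was called with DESeq2 (adjusted p = 0.0126), with limma-voom, with size-factor scaling, with the stricter filter on low counts, and without Mitol KO 4 or Control 3. It was not called with the library total as a term (edgeR adjusted p = 0.205), in the 5 libraries of like depth (0.425) or with the replicate number as a block (0.0588). Kifc2, a kinesin-14 motor best known from neurons, had 29.7, 15.6, 33.0 and 55.0 in Mitol KO and 36.9, 79.8, 50.9 and 79.0 in Control. Kif9, known from motile cilia, had 66.5, 68.6, 93.4 and 154 in Mitol KO and 127, 140.5, 107 and 228 in Control. Groups overlapped in both, with log2 fold changes of -0.91 (SE 0.38, edgeR adjusted p = 0.148) and -0.68 (SE 0.31, edgeR adjusted p = 0.180), and both were called lower only without Mitol KO 4 (edgeR adjusted p = 0.0443 and 0.0312). The other 13 tested members, among them the heterotrimeric kinesin-2 motors Kif3a and Kif3b of ciliary transport, the mitochondrial and vesicle motor Kif1b and the Hedgehog regulator Kif7, had log2 fold changes between -0.44 and 0.18, and none was called. The 5 members not tested were Kif1a, Kif5c, Kif26b, Kif27 and Kif28, none of which exceeded 18 normalized counts in any library; the first pair are motors of neurons.

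**Figure D5:**
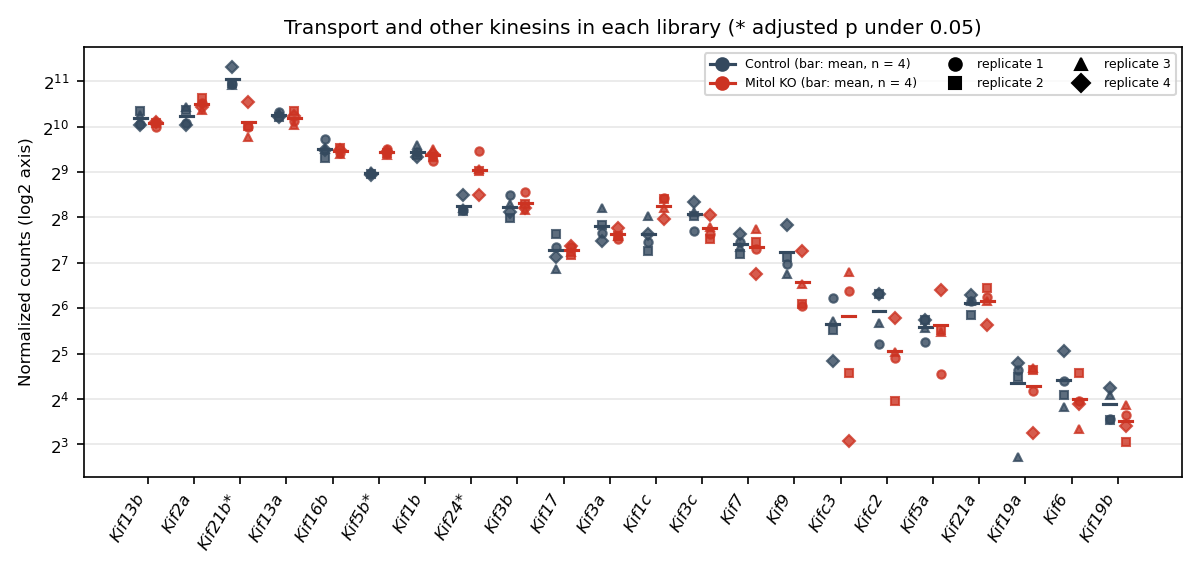
Normalized counts (y axis, log2 scale) of the 22 tested transport or other kinesins in each Control (dark) and Mitol KO (red) library, ordered by level per kilobase; bars are group means, symbols the replicate number and asterisks mark an adjusted p under 0.05. For Kif21b all Mitol KO libraries lie below all Control libraries, for Kif5b all lie above, and most other genes overlap.

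Because the strand setting of the counting was not given in the sources used here, reads of genes that overlap on opposite strands cannot be told apart. Among the called kinesins this applies most to Kif20a, with 32.8% of its transcript under exons of Brd8 and Cdc23. To a lesser degree it applies to Kif4 (13.8%, Pdzd11), Kif24 (13.2%, Ubap1) and Kif22 (12.6%). Among those not called, the share was 48.4% for Kifc3, 47.7% for Kif2a and 44.1% for Kif3c. It was 12.4% for Kif7, 10.5% for Kifc2 and 9.41% for Kif9. Kif2c, Kif11, Kif14, Kif18b, Kif20b and Kifc1 have no such overlap in GENCODE vM39.

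Transcripts of the proteins that mitotic kinesins work with were higher too. Of 18 spindle partners, 16 were called higher and none lower, where 4.68% and 3.75% of all genes were. Their median log2 fold change was 1.41, against -0.02 over all genes tested. Gtse1, a regulator of microtubule stability, was 269 ± 73.0 (SD, n = 4) in Mitol KO and 75.6 ± 18.7 in Control (log2 fold change 1.81, SE 0.23, edgeR adjusted p = 0.00381). Incenp, the scaffold that joins Aurora B to chromosomes and to the midzone, was 1115 ± 231 and 507 ± 60.1 (1.12 on the log2 scale, SE 0.15, edgeR adjusted p = 0.00381). Cit, the citron kinase that binds Kif14, was 1183 ± 261 and 558 ± 140.2 (1.07, SE 0.19, edgeR adjusted p = 0.0100), and Tpx2, which nucleates spindle microtubules, was 663 ± 211 and 205 ± 99.0 (1.67, SE 0.31, edgeR adjusted p = 0.0117). Hmmr and Psrc1 were the members not called (edgeR adjusted p = 0.0502 and 0.169). Cenpe, the kinetochore kinesin outside the symbol pattern, was 407 ± 140.1 in Mitol KO and 115 ± 57.0 in Control (log2 fold change 1.79, SE 0.34, edgeR adjusted p = 0.0127). The count of spindle partners called fell to 7 without Mitol KO 2, 9 without Mitol KO 3 and 8 without Control 2. It was 3 with the library total as a term and 0 in the 5 libraries of like depth. Among 8 general proliferation genes 7 were called higher and none lower, where 4.68% and 3.75% of all genes were. The called genes included Mki67 (log2 fold change 1.08, SE 0.23, edgeR adjusted p = 0.0197) and Top2a (1.24, SE 0.28, edgeR adjusted p = 0.0237). The replication clamp Pcna was not called (0.34, SE 0.22, edgeR adjusted p = 0.367). The count of proliferation genes called was 1 without Mitol KO 1, without Mitol KO 2 or without Control 2, 4 without Mitol KO 3 and 2 without Control 4. It was 1 with the library total as a term and 0 in the 5 libraries of like depth.

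The cargo side of transport kinesins showed no call. Of 20 tested light chains, adaptors and regulators, edgeR called 0 in each direction at an adjusted p under 0.05. Over all genes 4.68% were called higher and 3.75% lower, so 0 of 20 does not set this list apart from all genes. In edgeR 3 (Mapk8ip3, Arl8b and Madd) had an unadjusted p under 0.05, and DESeq2 called 1 lower (Madd). The median log2 fold change was -0.04. The adaptors that tie Kif5b to mitochondria had log2 fold changes of 0.04 (Trak1, SE 0.09), 0.18 (Trak2, SE 0.11), 0.06 (Rhot1, SE 0.11) and 0.21 (Rhot2, SE 0.13), with edgeR adjusted p of 0.845, 0.305, 0.744 and 0.321. Dynein and dynactin, the machinery of transport towards the opposite microtubule end, had 3 of 23 genes higher and 2 lower, where 4.68% and 3.75% of all genes were. These were the light chain Dynll1 (log2 fold change 1.05, SE 0.22, edgeR adjusted p = 0.0186), Nde1 (0.58, SE 0.13, edgeR adjusted p = 0.0223), which acts with dynein in mitosis, the dynactin filament subunit Actr1a (0.35, SE 0.08, edgeR adjusted p = 0.0264), the adaptor Bicd1 (-0.46, SE 0.11, edgeR adjusted p = 0.0282) and Dync1li2. All 5 calls were lost without Mitol KO 3 and without Control 2.

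Of 12 tested tubulins, the track on which these motors run, 2 were higher and 1 lower (all genes, 4.68% and 3.75%). In edgeR 7 of the 12 had an unadjusted p under 0.05, of which only Tubb1 was lower. The median log2 fold change was 0.41, with 9 of the 12 positive, and DESeq2 called 3 higher and 1 lower. Tubg1, which starts new microtubules at the spindle pole, was 373 ± 132 in Mitol KO and 186 ± 48.8 in Control (log2 fold change 0.99, SE 0.26, edgeR adjusted p = 0.0372), and Tuba1b was 1848 ± 675 and 1049 ± 104 (0.80, SE 0.22, edgeR adjusted p = 0.0424). Each was called in only 1 of the 8 fits that left out a library, and neither without Mitol KO 1, 2 or 3. Tubb1, the platelet and megakaryocyte beta tubulin, was low in all libraries and lower in Mitol KO (2.94 ± 1.91 against 23.7 ± 9.18, log2 fold change -3.02, SE 0.57, edgeR adjusted p = 0.0127). Of the 4 tested genes of the megakaryocyte list, only Pf4 was called, and it was lower (10.98 to 17.2 against 26.4 to 62.0, edgeR adjusted p = 0.0202). Itga2b, Gp9 and Vwf were not called (log2 fold changes 0.49, -0.45 and -0.04). The sum of the list overlapped between the groups (2381 to 5085 in Mitol KO and 3143 to 4827 in Control). The part of megakaryocyte RNA in the Tubb1 value was not tested.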

How the data were processed

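Single-end reads of 75 bases from 100-cell libraries, primed with not-so-random primers and built with Nextera XT, were aligned by the authors to mm39 with STAR, merged with SAMtools and counted per gene with Subread; the gene annotation and strand setting were not given in the sources used here. The counts were deposited as a table of 23094 genes with no row total under 11; 1029 rows with no symbol (0.335% to 0.467% of counts) were left out. Counts were tested with edgeR 4.0.16 (R 4.3.3, TMM, default expression filter, quasi-likelihood test, 2-sided, condition only) over all 8 libraries, with Benjamini-Hochberg adjustment over 16444 genes and a threshold of 0.05. DESeq2 1.42.0, the study's tool, gave size factors and an alternative; limma 3.58.1 (voom) was another. Counting error limits low genes most. Transcript lengths and GRCm39 promoters were those of the GENCODE vM39 canonical transcripts (21526 symbols matched).

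The kinesins, the partner and marker lists and the tests were chosen with earlier results of these data known. Named genes are every called kinesin, the 4 transport members with the highest level per kilobase, the 3 transport members nearest the threshold, mitotic members not called, and up to 4 called members of each partner list, with fixed additions. Dync1li2, Mapk8ip3, Arl8b, Madd, Hmmr, Psrc1 and Vcam1 were named after their values were seen. The fits were tested on simulated counts. Library totals, scaling, filters, tools, the replicate number as a block and each library left out were varied. Libraries with the same number did not deviate together. A result of the HSC marker list is not reported here.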

Additional observations from a re-analysis of the deposited data

Results flagged for a closer look

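A single library stood apart from the other 3 of its group in 2 of the 68 sets of 4 libraries examined (34 tested kinesins in each group), by Dixon's test, which flags about 1 set in 20 by chance. For Kif21b, Control 4 was the highest of its group at 2566 normalized counts, with the others at 1926 to 2006. For Kif24, Control 4 was the highest at 363, with the others at 281 to 294, and it lay just above Mitol KO 4 (359.7).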

How the results depend on the processing

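The numbers of calls changed most under the depth settings and when single libraries were left out. The libraries of like depth are also fewer, and totals were on the whole larger in Mitol KO. An effect of depth therefore cannot be told apart here from that of fewer libraries or of the group. The number of mitotic kinesins called higher (10) was 3 with the log2 library total as a term and 0 in the 5 libraries of like depth, and 4 to 10 when leaving out one library at a time. The transport or other kinesins called higher (2) were 0 under both depth settings and 0 to 3 when leaving out a library, and those called lower (1) were 1 with the total as a term, 0 in the libraries of like depth and 1 to 3 when leaving out a library. Partner genes called higher over all lists (30) were 4 and 0 under the depth settings and 10 to 34 when leaving out a library, and those called lower (3) were 0, 0 and 1 to 5. Spindle partners called higher (16) were 3, 0 and 7 to 18. The median log2 fold change of mitotic kinesins (1.40) was 0.77 in the libraries of like depth, where 2 Control libraries carry the comparison; the cause was not tested. The normalizations, filters and tools gave 10 mitotic calls each, no kinesin changed direction among those called, and counting Kif2a as mitotic changed no class count by over 1.5 times. All genes called numbered 770 higher and 616 lower with TMM, 602 and 829 with library totals alone, 1350 and 965 with DESeq2, 179 and 181 with the total as a term, 2 and 1 in the libraries of like depth, and 167 to 1482 and 192 to 1019 when leaving out a library. With the replicate number as a block, 9 mitotic kinesins were called (Kif4 was lost, adjusted p = 0.0548), 2 transport members higher and 1 lower; the numbers do not pair the libraries (same-number correlations of deviations 0.0800, -0.0695, 0.0529 and 0.0669). Both depth settings were chosen after seeing the data.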
